A study of Homo sapiens with 18 samples.

Results

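A set of 35 human imprinted genes was followed through RNA-seq and MeDIP-seq of K562 cells, an established human erythroleukaemia line. The genes were taken by symbol from a list of known imprinted loci, a choice made with earlier results of these data known; the rule itself uses no measured value. Of the 35, 34 were rows among the 55766 rows of the deposited gene table, and HYMAI is not listed there under that symbol. All 35 had a position in the annotation, and 433 of the 198884 deposited MeDIP regions lay within 5 kb of 1 of them.

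All cells carried a transgene labelled B2M:tdTomato, named for beta-2 microglobulin and the red fluorescent protein tdTomato. Each assay had 3 groups of 3 libraries. The TALE group and the dCas9 group were silenced with a mix of 3 plasmids, each coding for a different artificial transcriptional repressor, 1 of them based on D3A. TALE proteins read DNA by their own repeats, whereas dCas9, a Cas9 that cannot cut, is led to its site by a guide RNA, so a guide RNA plasmid was added in that group. Neither the time of collection, nor whether the line is 1 clone, nor whether replicates were separate cultures is given in the labels. The p-values below therefore measure the spread between these libraries, which may be technical.

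Imprinted genes are expressed from a single parental copy in many tissues. The choice is held by DNA methylation laid down in the egg or the sperm at imprinting control regions, which are CpG-rich and keep that methylation on one parent's copy through the divisions of the embryo. The zinc finger proteins ZFP57 and ZNF445 bind methylated control regions and recruit TRIM28, and DNMT1 with UHRF1 copies the methyl marks at replication. Cell lines of tumour origin often gain or lose such marks. Neither assay here separates the parental copies, so all values are sums over both. In the list used here, GRB10, GNAS, BLCAP and INPP5F are marked as imprinted by isoform, and IGF2R and TRAPPC9 as variable. Values of these genes need not come from 1 parental copy.

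RNA totals ran from 8460076 to 12050554 counts a library and MeDIP totals from 2529729 to 4492751. The targeted gene fitted the labels: B2M was at 5.93 to 6.89 CPM (counts scaled to library size with edgeR's TMM factors) in untreated libraries. It was at 0.294 to 0.539 CPM in TALE libraries and at 0.185 to 0.311 CPM in dCas9 libraries. The row B2M_tomato was at 359 to 393 CPM in untreated libraries, at 12.5 to 18.2 CPM in TALE and at 13.9 to 19 CPM in dCas9 libraries. Of 11 erythroid and K562 marker genes, 11 passed the filter on low counts, with HBG2, a fetal globin, at 3941 ± 258 CPM (SD, n = 3) in untreated libraries. Of 15 markers of fibroblasts, T cells, B cells, monocytes and epithelium, 5 passed it (EPCAM, CD3D, LYZ, COL1A2 and COL1A1), and 0 were at 0 in every library of all groups. Summed over the 15 markers, levels were 152 to 166 CPM in untreated, 144 to 179 CPM in TALE and 136 to 179 CPM in dCas9 libraries. EPCAM made up most of that sum, at 102 ± 7.36 CPM (SD, n = 3) in untreated libraries, and the part of these markers in the results below was not tested.

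Near H19, the letters of a control region can be read directly. CTCF, an insulator protein, binds repeated sites upstream of H19 when they are unmethylated and keeps IGF2 from shared enhancers. The span of H19 with 5 kb on either side (GRCh37, chr11:2011396-2030782) was searched on both strands for the 14-base CTCF core with free bases at positions where known sites vary. It held 5 matches, all on the minus strand, which is also the strand of H19. They are shown as 60-base windows of the minus strand, 5′ to 3′, with the core in capitals, since they show how alike the repeats are and only 1 of them lies in a deposited MeDIP region.
copy 1, chr11:2021175-2021234: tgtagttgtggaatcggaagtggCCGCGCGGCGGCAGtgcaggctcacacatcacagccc
copy 2, chr11:2021987-2022046: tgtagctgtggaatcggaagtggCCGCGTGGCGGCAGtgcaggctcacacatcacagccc
copy 3, chr11:2023420-2023479: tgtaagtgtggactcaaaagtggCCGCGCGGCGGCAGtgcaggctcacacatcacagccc
copy 4, chr11:2023821-2023880: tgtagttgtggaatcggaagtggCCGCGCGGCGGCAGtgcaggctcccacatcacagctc
copy 5, chr11:2024226-2024285: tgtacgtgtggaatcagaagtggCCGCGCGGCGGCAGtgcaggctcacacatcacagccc
Any pair of these windows shared 53 to 58 of 60 bases. All of them lie within the annotated span of H19, which includes long transcripts that start upstream of the main one. Only copy 1 fell in a deposited region (chr11:2020173-2021460), and the other 4 matches lay in no region. Among 300-base windows at the centres of all deposited regions, 0.00202% held this core on either strand.

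**Figure D1:**
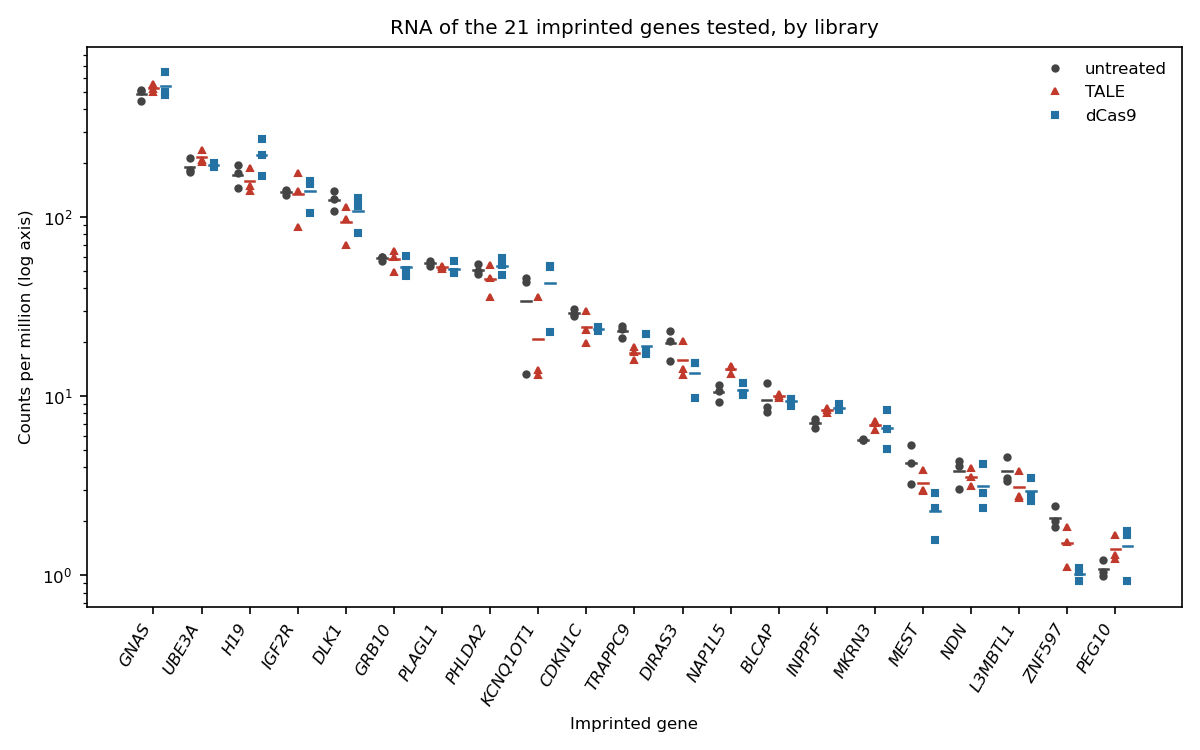
RNA level in CPM on a log axis for the 21 imprinted genes that passed the filter. Each symbol is 1 library (circle untreated, triangle TALE, square dCas9) and each bar is the mean of 3. The groups overlap for most genes, and KCNQ1OT1 spreads widely inside each group.

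The RNA of imprinted genes in K562 cells was very uneven. Of 34 genes in the table, 21 passed the filter on low counts (edgeR's filterByExpr with a minimum of 10 counts) and 13 stayed under it. Per kilobase of the canonical transcript, untreated levels were highest for GNAS at 263 CPM per kb, H19 at 156 and PHLDA2 at 55.3. DLK1 followed at 26.8 CPM per kb, UBE3A at 21.96, PLAGL1 at 16.9, CDKN1C at 16.5, DIRAS3 at 13.3, GRB10 at 10.8 and IGF2R at 9.83. The lowest of those that passed were L3MBTL1 at 1.11 CPM per kb, PEG10 at 0.419 and ZNF597 at 0.382. GNAS stood at percentile 98.0 and H19 at percentile 96.5 of tested genes on this scale, against percentile 3.63 for ZNF597. On the union of all annotated exons instead, PHLDA2 ranked 1 and GNAS ranked 4, so the order at the top depends on the transcript length used. KCNQ1OT1 ranked 4 by its short canonical form and 19 by its union of exons, and is left out of that order.

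In the 11p15 cluster the maternally expressed H19, CDKN1C and PHLDA2 were present, whereas the maternally expressed KCNQ1 and the paternally expressed growth factor gene IGF2 stayed under the filter. H19 (chr11:2016396-2025782) makes a maternally expressed noncoding RNA. It was at 145, 196 and 176 CPM in untreated replicates 1, 2 and 3, at 149, 188 and 139.9 CPM in TALE and at 171, 223 and 272 CPM in dCas9 replicates. Its dCas9 libraries lay high but overlapped both other groups. IGF2 (chr11:2150342-2179621) codes for a fetal growth factor and is read from the paternal copy. It had 21 counts over all 9 libraries and at most 0.741 CPM in any of them. INS-IGF2, a separate row named for both genes, had 0 counts. How reads shared by overlapping genes were counted is not given in the sources used here, so the IGF2 count may be too low. CDKN1C (chr11:2904443-2907005) codes for a cyclin-dependent kinase inhibitor. It was at 28.7, 28.1 and 30.9 CPM in untreated, 19.9, 23.4 and 30.01 CPM in TALE and 24.5, 22.98 and 23.9 CPM in dCas9 libraries. The dCas9 values all lay below the untreated ones, and TALE replicate 3 did not. PHLDA2 (chr11:2949503-2950650), a maternally expressed brake on placental growth, was at 47.9, 55.0 and 49.9 CPM in untreated libraries. It was at 35.8, 45.5 and 53.7 CPM in TALE and at 54.3, 47.5 and 59.1 CPM in dCas9 libraries, and all groups overlapped. KCNQ1 (chr11:2465884-2870335), a potassium channel gene, had 4 counts in all.

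KCNQ1OT1 (chr11:2618538-2721233) is a long noncoding RNA read from the paternal copy, antisense to KCNQ1. It was at 13.3, 43.4 and 45.6 CPM in untreated, at 35.6, 14.03 and 13.1 CPM in TALE and at 22.8, 52.9 and 53.4 CPM in dCas9 libraries. Each group held libraries both high and low. Over the 9 libraries its SD of log2(CPM + 0.5) was 0.861, and only 0.0870% of tested genes had a larger one. The median over the 21 imprinted genes was 0.226, near the median of 0.207 over all tested genes. MALAT1 and NEAT1, abundant nuclear noncoding RNAs looked up after these values were seen, were ordered much like it. MALAT1 was at 4214, 6655 and 6355 CPM in untreated, 5627, 3565 and 3101 CPM in TALE and 4505, 9263 and 7719 CPM in dCas9 libraries. NEAT1 was at 123, 223 and 201 CPM in untreated, 149, 112 and 91.7 CPM in TALE and 150.1, 250.2 and 258 CPM in dCas9 libraries. The 4 libraries with the most KCNQ1OT1 RNA also had 10.2% to 14.01% of their counts on mitochondrially encoded genes. The other 5 had 4.04% to 7.15%. The part of these differences between libraries in the group values of KCNQ1OT1 was not tested. Whether the deposited counts use strand is not given in the sources used here, so reads of KCNQ1OT1 and of KCNQ1 introns cannot be told apart.

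At 14q32 the paternally expressed gene was the one present. DLK1 (chr14:101192042-101204561) codes for a membrane protein that inhibits Notch-dependent differentiation. It was at 108, 126 and 140.2 CPM in untreated, at 70.1, 114 and 97.5 CPM in TALE and at 115, 81.5 and 127 CPM in dCas9 libraries. 2 TALE libraries and 1 dCas9 library lay below all untreated ones, and the others overlapped them. MEG3 and MEG8, maternally expressed noncoding RNAs of the same cluster, had 18 and 9 counts in all. Their highest values were 0.847 CPM for MEG3 and 0.496 CPM for MEG8.

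The 15q11 cluster, deleted in Prader-Willi and Angelman syndromes, was uneven too. UBE3A (chr15:25578875-25684198), a ubiquitin ligase that is imprinted in neurons, was at 213.8, 183 and 178 CPM in untreated libraries. It was at 236, 207 and 203 CPM in TALE and at 189.6, 201 and 197 CPM in dCas9 libraries, so every TALE library lay above every dCas9 library. NDN (chr15:23930547-23932452), a paternally expressed MAGE family gene, was at 4.36, 4.08 and 3.03 CPM in untreated, 3.14, 3.55 and 3.98 CPM in TALE and 2.87, 2.38 and 4.16 CPM in dCas9 libraries. MKRN3 (chr15:23810821-23875222), whose product restrains the onset of puberty, was at 5.76, 5.68 and 5.69 CPM in untreated libraries. It was at 7.25, 7.09 and 6.48 CPM in TALE libraries, all above untreated, and at 5.10, 6.52 and 8.33 CPM in dCas9 libraries, which overlapped them. MAGEL2 had 0 counts in 9 of 9 libraries. SNRPN had 2 counts and SNURF 1 count in all. SNRPN and SNURF share exons on the same strand, so a counting rule that drops reads shared by overlapping genes would lower both, and the rule used is not given in the sources used here.

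Several other paternally expressed genes were low. PEG10 (chr7:94285637-94299007), a gene derived from a retrotransposon, was at 1.05, 0.989 and 1.21 CPM in untreated, 1.67, 1.23 and 1.30 CPM in TALE and 1.76, 0.932 and 1.69 CPM in dCas9 libraries. Its neighbour SGCE, a sarcoglycan gene read from the same promoter region in the other direction, had 16 counts in all. MEST (chr7:130126012-130146306), which codes for a hydrolase-like protein of mesoderm, was at 5.32, 3.21 and 4.24 CPM in untreated libraries. It was at 2.94, 3.01 and 3.89 CPM in TALE and at 1.58, 2.38 and 2.88 CPM in dCas9 libraries, all 3 of the latter below untreated. PEG3, a zinc finger gene, and ZIM2, which shares its start, had 10 and 4 counts. Their spans overlap on the same strand, so the limit given for SNRPN and SNURF holds for them too. NNAT, the gene for the membrane protein neuronatin, had 4 counts. ZDBF2, a gene first known as imprinted from its methylation, had 54 counts and FAM50B had 16.

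Among the growth regulators and signalling genes, PLAGL1 varied least between libraries and DIRAS3 most. PLAGL1 (chr6:144261437-144385736), a zinc finger gene of the transient neonatal diabetes locus, was at 53.3, 55.5 and 56.8 CPM in untreated libraries. It was at 53.3, 52.9 and 51.3 CPM in TALE and at 48.7, 56.8 and 49.2 CPM in dCas9 libraries, and 97.7% of tested genes varied more between libraries. GRB10 (chr7:50657760-50861159), an adaptor that dampens insulin and growth factor signalling, was at 56.9, 59.8 and 60.1 CPM in untreated, 64.9, 59.7 and 49.4 CPM in TALE and 46.9, 50.4 and 60.8 CPM in dCas9 libraries. GNAS (chr20:57414773-57486247), which codes for the stimulatory G protein alpha subunit and for imprinted longer forms, was at 503, 514 and 446 CPM in untreated libraries. It was at 554, 521 and 497 CPM in TALE and at 479.8, 643 and 502 CPM in dCas9 libraries, and its forms are summed in 1 row. IGF2R (chr6:160390114-160534539), the receptor that clears IGF2, was at 133, 142 and 139.6 CPM in untreated libraries. It spread more widely in the silenced groups, at 176, 140.1 and 88.3 CPM in TALE and 106, 153 and 159.5 CPM in dCas9 libraries. DIRAS3 (chr1:68511569-68517400), a growth-restraining RAS-like GTPase gene, was at 15.8, 20.4 and 23.1 CPM in untreated, 14.2, 13.1 and 20.2 CPM in TALE and 15.3, 15.2 and 9.81 CPM in dCas9 libraries. All dCas9 values lay below the untreated ones.

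The remaining genes span several functions. NAP1L5 (chr4:89617064-89618980), a histone chaperone-like gene inside an intron of HERC3, was at 11.6, 10.6 and 9.32 CPM in untreated libraries. It was at 14.7, 13.3 and 14.6 CPM in TALE libraries, above all others, and at 11.8, 10.1 and 10.4 CPM in dCas9 libraries. INPP5F (chr10:121485554-121588659), an inositol phosphatase gene, was at 7.42, 6.67 and 7.14 CPM in untreated, 8.04, 8.63 and 8.34 CPM in TALE and 9.08, 8.49 and 8.33 CPM in dCas9 libraries. All 6 silenced libraries lay above all 3 untreated ones. BLCAP (chr20:36120874-36156333), the gene that hosts NNAT in an intron, was at 8.64, 11.9 and 8.11 CPM in untreated, 9.80, 10.3 and 10.0 CPM in TALE and 9.64, 9.63 and 8.82 CPM in dCas9 libraries. L3MBTL1 (chr20:42118082-42179594), which codes for a chromatin compactor, was at 3.49, 3.34 and 4.60 CPM in untreated, 3.82, 2.70 and 2.78 CPM in TALE and 2.59, 2.80 and 3.47 CPM in dCas9 libraries. ZNF597 (chr16:3482414-3493504), a maternally expressed zinc finger gene, was at 2.01, 1.85 and 2.42 CPM in untreated libraries. It was at 1.86, 1.54 and 1.11 CPM in TALE and at 0.927, 1.04 and 1.09 CPM in dCas9 libraries, the latter below all others. TRAPPC9 (chr8:140739968-141468678), a vesicle trafficking gene, was at 21.1, 24.7 and 23.7 CPM in untreated, 17.5, 18.9 and 15.9 CPM in TALE and 17.98, 17.2 and 22.2 CPM in dCas9 libraries. TALE values lay below all untreated ones, and dCas9 replicate 3 did not.

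No imprinted gene passed the threshold when TALE-silenced cells were set against untreated cells. In edgeR's quasi-likelihood test over all 13786 genes, 0 of 21 had an adjusted p under 0.05, against 3 genes (0.0218%) over the whole table. DESeq2 also called 0 of the 21, against 9 genes over the whole table. At an unadjusted p under 0.05 there were 3 of 21, against 7.15% of all genes tested. TRAPPC9 had the smallest p, with a log2 fold change of -0.40 ± 0.14 (SE) and an adjusted p of 0.585 (edgeR), lower in 3 of 3 TALE libraries. NAP1L5 had a log2 fold change of 0.42 and DLK1 of -0.41, the latter -0.24 without TALE replicate 1. Groups did not overlap for 6 of 21, against 12.5% of all genes. The median log2 fold change of the 21 was -0.11, with 7 above and 14 below 0, against 0.002 over all genes tested.

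The comparison of dCas9-silenced with untreated cells gave 0 calls of 21 with edgeR, against 4 genes (0.029%) over the table. DESeq2 also gave 0, against 27 genes over the table. Here 4 of 21 had an unadjusted p under 0.05, against 5.93% of all genes. MEST came first, with a log2 fold change of -0.92 ± 0.30 (SE) and an adjusted p of 0.530 in edgeR, lower in 3 of 3 dCas9 libraries. The other 3 were ZNF597 at -1.03, DIRAS3 at -0.55 and H19 at 0.37 on the log2 scale. Without dCas9 replicate 3, DIRAS3 was at -0.36 and H19 at 0.20. Groups did not overlap for 5 of 21 (MEST, ZNF597, DIRAS3, CDKN1C and INPP5F), against 11.6% of all genes. The median log2 fold change was -0.02. This comparison and the TALE one share the untreated libraries.

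**Figure D2:**
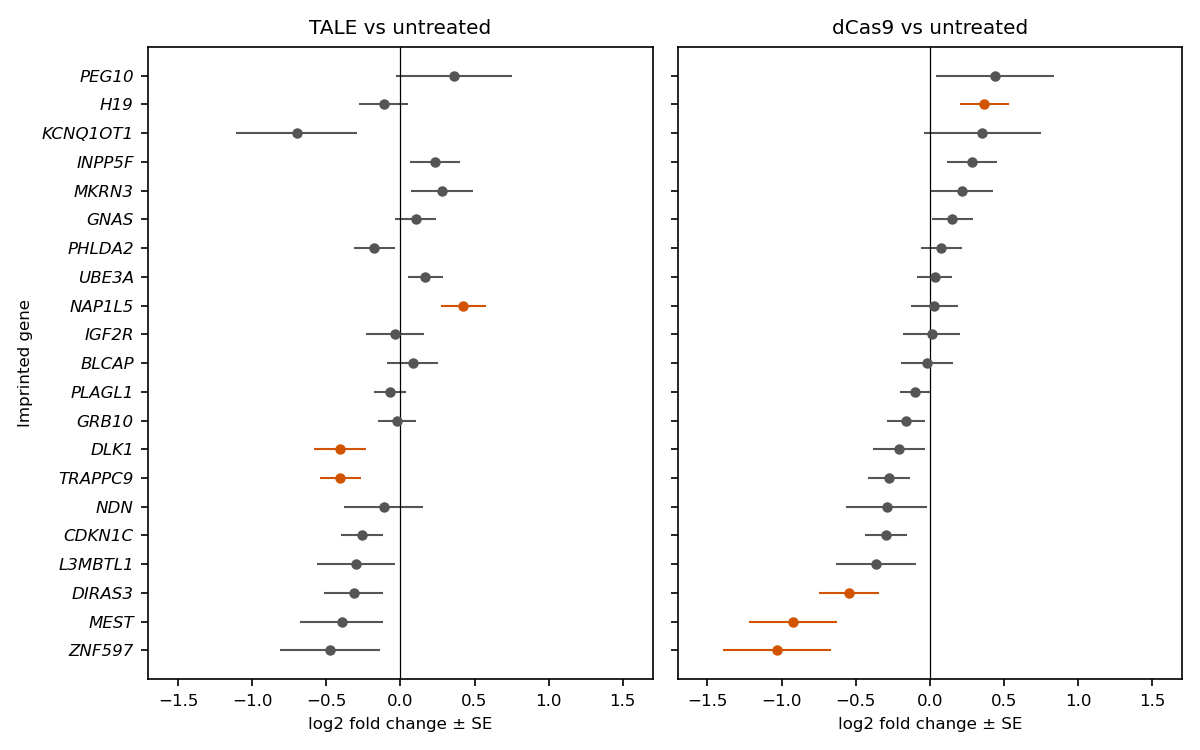
Log2 fold change with its SE (edgeR) of the 21 imprinted genes in TALE against untreated (left) and dCas9 against untreated (right), both sorted by the dCas9 value. Orange marks an unadjusted p under 0.05, which 3 genes reach on the left and 4 on the right, and 0 reach an adjusted p under 0.05 on either side.

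Between the platforms, edgeR and DESeq2 each called 0 of 21, and each 0 (0%) of all genes. An unadjusted p under 0.05 was found for 3 of 21, against 6.38% of all genes. H19 had the smallest p, at a log2 fold change of -0.48 ± 0.16 (SE) for TALE against dCas9, with an adjusted p of 0.687 (edgeR), and its groups overlapped. Without dCas9 replicate 3 it was at -0.31. KCNQ1OT1 stood at -1.05 ± 0.40 (SE) with an adjusted p of 0.745, and at -1.66 without TALE replicate 1. Groups did not overlap for 5 of 21, all higher in TALE, against 9.38% of all genes. Without the filter on low counts, edgeR's fit called KCNQ1OT1 here at -1.03 (adjusted p = 1.25e-08), 1 of 77 genes called among 41469. The same unfiltered fit called it in TALE against untreated at -0.66 (adjusted p = 0.0120), 1 of 74 genes called among 41469. The cause was not tested. Over all alternatives its adjusted p ran from 1.25e-08 to 0.999 between the platforms and from 0.0120 to 0.9999 in TALE against untreated, and it passed 0.05 in the unfiltered fit only. The libraries themselves overlap, as the plot of KCNQ1OT1 by library shows.

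With both silenced groups averaged against untreated cells, edgeR and DESeq2 each called 0 of 21. Over the table edgeR called 5 genes (0.0363%) and DESeq2 called 36. Unadjusted p-values under 0.05 were found for 5 of 21, all lower in silenced cells, against 6.35% of all genes in either direction. They were TRAPPC9 at a log2 fold change of -0.34 ± 0.12 (SE, adjusted p = 0.581), MEST at -0.66, ZNF597 at -0.75, DIRAS3 at -0.43 and CDKN1C at -0.28. INPP5F was the 1 gene of 21 whose 6 silenced libraries did not overlap the 3 untreated ones, against 3.54% of all genes. Its exact two-sided permutation p was 0.0119, the smallest that 6 libraries against 3 can give, and its edgeR adjusted p was 0.834. That permutation p reflects the same non-overlap by which the gene was picked, so it is no separate evidence. The median log2 fold change was -0.08, with 8 genes above and 13 below 0.

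A list of 19 genes that act on imprints or on DNA methylation, among them the TET genes whose enzymes remove methylation, was read from the same RNA. Of the 19, 14 passed the filter and 5 stayed under it, and edgeR called 0 of 14 in each of the 4 comparisons. ZNF445 was at 47.4 ± 4.31 CPM (SD, n = 3) and TRIM28 at 198 ± 4.08 CPM in untreated libraries, whereas ZFP57 was under the filter with 25 counts in all. The maintenance methyltransferase DNMT1 was at 255 ± 12.1 CPM and its partner UHRF1 at 34.7 ± 3.70 CPM. CTCFL, a germline relative of CTCF that is active in some cancers, was at 279 ± 16.2 CPM, beside 103 ± 11.7 CPM for CTCF itself, as total counts not scaled for length. CTCF was the only 1 of the 14 with an unadjusted p under 0.05, at a log2 fold change of 0.28 in TALE against untreated (adjusted p = 0.696, edgeR). Over all genes tested, 7.15% had such a p in that comparison.

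A further list of 73 imprinted genes held 64 in the table, of which 22 passed the filter, and edgeR called 0 of 22 in each of the 4 comparisons. Unadjusted p-values under 0.05 were found for 3 of 22 in TALE, 1 of 22 in dCas9 and 1 of 22 in the averaged silenced groups, each against untreated. Over all genes those shares were 7.15%, 5.93% and 6.35%. They were found for 2 of 22 between the platforms, against 6.38% of all genes. The smallest belonged to SLC22A18, a transporter gene of the 11p15 cluster, at a log2 fold change of -0.87 ± 0.26 (SE, adjusted p = 0.532, edgeR) in TALE against dCas9. Medians of the list were 0.02 in TALE and 0.07 in dCas9 against untreated. RHOBTB3 and NAP1L4 were among its most counted genes in untreated libraries, at 316 ± 9.44 and 116 ± 5.85 CPM.

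MeDIP-seq counts DNA fragments held by an antibody against 5-methylcytosine, so its signal rises with methylation and with the number of CpG sites in a fragment. A deposited region or peak within 2 kb of any annotated transcript start was taken as a start-site signal. Of 35 imprinted genes, 27 (77.1%) had a region there, against 64.0% of 20090 protein-coding genes. A peak in all 3 untreated libraries was found at the starts of 20 genes (57.1%), against 45.6% of coding genes. The same count was 17 (48.6%) in TALE, against 43.8% of coding genes, and 19 (54.3%) in dCas9, against 44.6%. In all 9 libraries it was 16 (45.7%), against 37.9%. Many of these genes have numerous annotated starts, 73 for SGCE and 59 for GNAS, which raises the chance of a hit. With the canonical start alone, a choice added after seeing the data, 15 (42.9%) had a peak in all 3 untreated libraries, against 23.8% of coding genes. Within 1 kb of any start it was 19 (54.3%), against 33.4%. Within 5 kb it was 22 (62.9%), against 59.1%, so the gap depends on the window. Neighbouring genes can share a peak, so the genes counted are not all separate loci. The best peak at any start was the same for PEG3 and ZIM2, and for PEG10 and SGCE, in every library. The imprinted set also holds noncoding genes, which the coding background does not.

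No peak at any start in any library was found for 8 of 35 genes (22.9%), against 33.2% of coding genes. They were CDKN1C, PHLDA2, SNRPN, SNURF, NDN, MAGEL2, MKRN3 and ZNF597. Of these 8, 5 passed the RNA filter, as did 21 of all 34 imprinted genes with RNA values. The other 3 (SNRPN, SNURF and MAGEL2) had 2 counts or fewer. Peaks came and went between libraries at PLAGL1 and HYMAI, which had one in 3 of 3 untreated, 1 of 3 TALE and 3 and 2 of 3 dCas9 libraries. H19 had a start-site peak in 2 of 3 untreated, 2 of 3 TALE and 1 of 3 dCas9 libraries. For IGF2 the counts were 1, 2 and 0 of 3 in the same order, and for KCNQ1OT1 they were 1, 2 and 1 of 3.

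**Figure D3:**
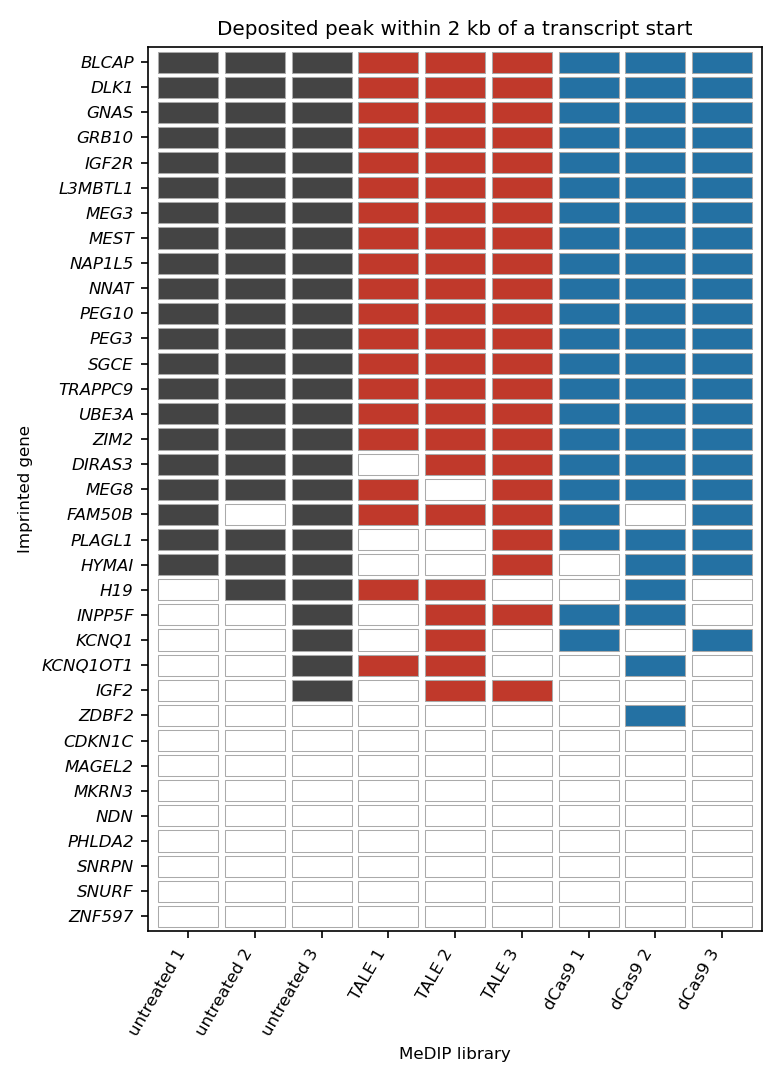
Presence of a deposited MeDIP peak within 2 kb of any annotated transcript start of the 35 imprinted genes (rows) in the 9 libraries (columns), filled where a peak is present. The top 16 genes have a peak in all 9 libraries and the bottom 8 in none.

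In the authors' deposited lists the median −log10 q over all peaks of a library ran from 1.52 to 1.95, and start-site peaks of imprinted genes lay on both sides of that. In the authors' deposited peak lists, the best start-site peak of GRB10 had a median −log10 q of 6.34 over the 9 libraries, that of IGF2R 5.46 and that of TRAPPC9 4.78. For MEST the median was 2.16, for NNAT 1.66, for PEG10 and SGCE 1.14 and for PEG3 0.995, again in the authors' deposited lists. The best peak was taken from all peaks near any start of a gene, which favours genes with many peaks. A library had 10 to 13 such peaks for GRB10, 6 to 9 for IGF2R and 4 to 10 for TRAPPC9. It had 1 for PEG10 and 1 for PEG3, so these medians do not rank the genes on equal terms. When a −log10 q of at least 5 was asked for in all 3 untreated libraries, 0 of 35 imprinted genes and 1.74% of coding genes had such a peak. Of 35 imprinted genes, 14 had a start-site region with a mean of at least 10 untreated counts (40.0%), below the 48.5% of coding genes.

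3 start-site regions lie near promoters known to be imprinted from the germline and had a peak in all 9 libraries. Their letters are shown to make the CpG content visible, with each CpG in capitals, on the plus strand of GRCh37, 5′ to 3′.
NNAT and BLCAP, chr20:36148966-36149265: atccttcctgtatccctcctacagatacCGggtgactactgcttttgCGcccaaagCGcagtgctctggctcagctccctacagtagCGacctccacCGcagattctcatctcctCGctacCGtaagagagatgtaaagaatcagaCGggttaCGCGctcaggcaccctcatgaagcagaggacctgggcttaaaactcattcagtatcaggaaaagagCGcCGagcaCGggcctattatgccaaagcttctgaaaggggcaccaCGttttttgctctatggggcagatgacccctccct
PEG10 and SGCE, chr7:94286169-94286429: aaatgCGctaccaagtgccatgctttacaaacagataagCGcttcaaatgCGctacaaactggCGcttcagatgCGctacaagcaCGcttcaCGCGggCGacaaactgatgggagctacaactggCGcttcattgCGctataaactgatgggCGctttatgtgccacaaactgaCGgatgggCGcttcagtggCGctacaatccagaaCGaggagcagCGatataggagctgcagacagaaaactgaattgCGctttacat
NAP1L5, chr4:89618341-89618554: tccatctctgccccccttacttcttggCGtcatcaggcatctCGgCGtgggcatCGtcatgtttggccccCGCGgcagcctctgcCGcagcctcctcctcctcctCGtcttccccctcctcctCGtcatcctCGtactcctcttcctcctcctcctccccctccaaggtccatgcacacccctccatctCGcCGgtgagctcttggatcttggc
The NNAT window holds 14 CpG sites in 300 bases and is the centre of a region (chr20:36148772-36149460) that ends 148 bases before an NNAT start and covers a BLCAP start. The PEG10 window holds 18 CpG sites in an intron of PEG10, 311 bases after a start, and lies 285 bases upstream of an SGCE start. The NAP1L5 window holds 12 CpG sites in the coding exon of NAP1L5, 426 bases after its start. A median window of 300 bases at the centre of a deposited region held 8. Not all start-site windows of imprinted genes were above that. In windows not shown, MEG3 (peak in all 9 libraries) held 3 CpG sites and H19 held 4, each in 300 bases, whereas L3MBTL1 held 14 in 246. ZFP57 reads the core TGCCGC when it is methylated, and its letters can overlap the CTCF core. On either strand, that core occurs 2 times in the NAP1L5 window and 0 times in the other 2 windows shown here. Among central windows of all regions, 2.96% of 214-base, 3.49% of 261-base and 3.90% of 300-base windows held it.

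At the NNAT and BLCAP region, MeDIP counts were 71, 50 and 58 in untreated, 29, 45 and 39 in TALE and 48, 65 and 37 in dCas9 libraries. That is 20.4 ± 2.02, 13.9 ± 3.51 and 17.3 ± 1.53 CPM (SD, n = 3), and every TALE library lay below every untreated one. The log2 fold change of TALE against untreated was -0.57 ± 0.24 (SE), with an unadjusted p of 0.0181 and an adjusted p of 0.9997 over all regions (edgeR). NNAT RNA stayed under the filter, and BLCAP RNA was at 9.54 ± 2.03 CPM in untreated and 10.0 ± 0.267 CPM in TALE libraries. At the PEG10 and SGCE region the counts were 5, 6 and 14 in untreated, 9, 5 and 21 in TALE and 8, 18 and 6 in dCas9 libraries. NAP1L5 gave 7, 10 and 11 counts in untreated, 10, 15 and 9 in TALE and 13, 9 and 11 in dCas9 libraries. Groups overlapped at both. The H19 region that holds CTCF copy 1 had 8, 3 and 15 counts in untreated, 17, 7 and 9 in TALE and 6, 11 and 11 in dCas9 libraries, also overlapping.

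At IGF2R a start-site region of 6576 bases with 174 CpG sites spans coding exons (chr6:160499144-160505719) near an annotated alternative start. It was at 119 ± 10.5 CPM in untreated, 131 ± 6.09 in TALE and 117 ± 4.78 CPM in dCas9 libraries (SD, n = 3). GNAS had 38.8 ± 2.86, 29.4 ± 8.57 and 37.1 ± 4.20 CPM at coding exons (chr20:57484045-57485901). That GNAS region lies near the 3′ end of the gene (chr20:57414773-57486247, plus strand). It counts as a start-site region through an annotated alternative start there. MEST had 18.3 ± 1.55, 22 ± 2.42 and 17.0 ± 1.15 CPM in a region of 34 CpG sites (chr7:130132752-130133248) that overlaps an annotated UTR exon. These 3 regions differ in length, so their levels are not compared with each other. Over the 52 start-site regions tested, the median log2 fold change was 0.04 in TALE and -0.02 in dCas9 against untreated.

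**Figure D4:**
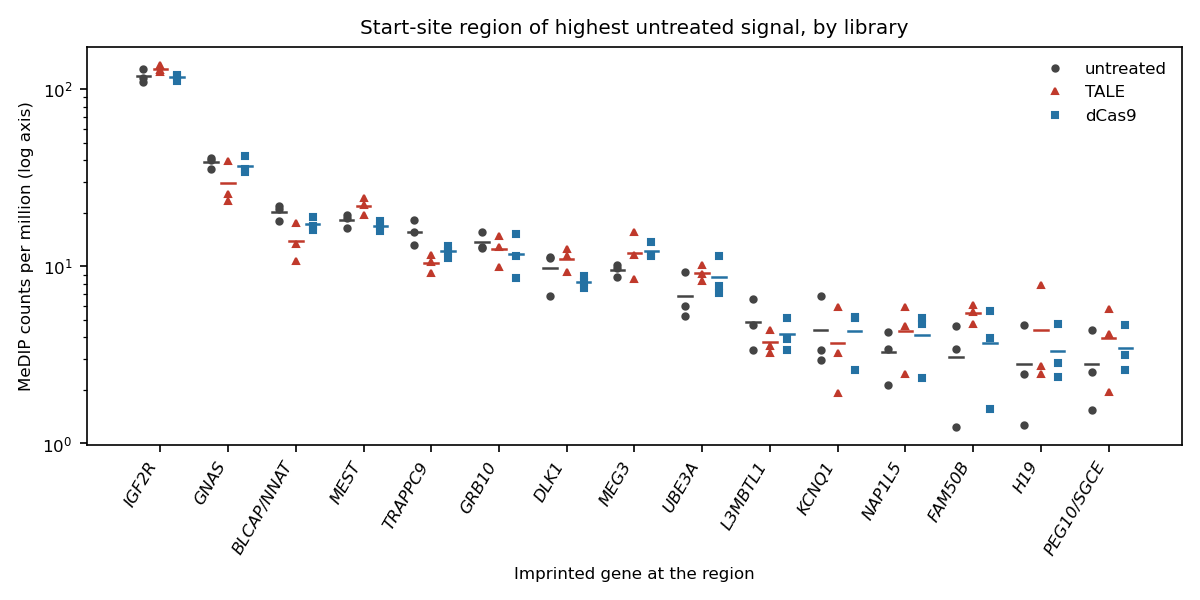
MeDIP level in CPM on a log axis at the start-site region of highest untreated count for each imprinted gene with a tested one. Starts include alternative ones inside a gene, as at IGF2R and GNAS. Each symbol is 1 library (circle untreated, triangle TALE, square dCas9) and each bar is the mean of 3. BLCAP and NNAT share 1 region, as do PEG10 and SGCE, and the groups overlap at most regions.

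Over the whole spans of the 35 genes with 5 kb on either side, 433 regions were listed and 229 passed the filter. They were spread over 32 genes and most numerous in TRAPPC9 with 107, GRB10 with 69, KCNQ1 with 48 and IGF2R with 35. Of the 229, 71 were at TRAPPC9, 34 at GRB10 and 33 at IGF2R, genes marked as variable or imprinted by isoform. edgeR and DESeq2 each called 0 of 229 in each of the 4 comparisons, and DESeq2 also called 0 over all regions. Over all 105652 regions tested, edgeR called 0 (0%) for TALE and 1 (0.000947%) for dCas9 against untreated, 1 (0.000947%) between platforms and 0 (0%) for the silenced mean. An unadjusted p under 0.05 was found for 10 of 229 in TALE against untreated, beside 4.74% of all regions, and for 9 of 229 in dCas9 against untreated, beside 4.69%. Between platforms it was 6 of 229, beside 4.47%, and for the silenced mean 10 of 229, beside 4.88%. These shares of 2.62% to 4.37% lie near or below the background.

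The regions with the smallest p-values lay mostly in introns. In intron sequence of TRAPPC9, 2958 bases from an annotated start (chr8:141464554-141464885), counts were 34, 31 and 20 in untreated, 7, 8 and 15 in TALE and 16, 23 and 27 in dCas9 libraries. TALE lay below both other groups, at a log2 fold change of -1.45 ± 0.38 (SE) against untreated with an adjusted p of 0.772 (edgeR). It also came first between the platforms, at -1.12 ± 0.39 with an adjusted p of 0.9997 (edgeR). In an intron of PLAGL1 (chr6:144311274-144311562) counts were 18, 19 and 20 in untreated, 6, 4 and 7 in TALE and 6, 11 and 8 in dCas9 libraries. Scaled for library size, all 6 silenced libraries lay below all 3 untreated ones, which was so for 1.75% of the 229 regions and 2.45% of all regions in either direction. The silenced mean was at a log2 fold change of -1.41 ± 0.41 (SE) from untreated, with an adjusted p of 0.950 (edgeR) and an exact two-sided permutation p of 0.0119. The permutation p reflects the same non-overlap of the libraries and is no separate evidence. PLAGL1 RNA was at 55.2 ± 1.73 CPM in untreated libraries, 52.5 ± 1.06 in TALE and 51.6 ± 4.55 CPM in dCas9 libraries.

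In dCas9 against untreated, the first region was in an intron of KCNQ1 (chr11:2758801-2759085), with 16, 14 and 18 counts in untreated and 26, 42 and 18 in dCas9 libraries. Its log2 fold change was 0.83 ± 0.34 (SE, unadjusted p = 0.0150, edgeR), higher in 3 of 3 dCas9 libraries once scaled. A region in an intron of INPP5F (chr10:121581426-121581729) had 23, 16 and 29 counts in untreated and 12, 17 and 7 in dCas9 libraries, at -0.89 ± 0.38. Upstream of DLK1, 4966 bases before its start (chr14:101186882-101187076), counts were 7, 9 and 9 in TALE and 19, 25 and 16 in dCas9 libraries, at -1.19 ± 0.44. Another TRAPPC9 intron region (chr8:141366761-141368112) was at -0.73 ± 0.28 in TALE against untreated (-0.47 without untreated replicate 2), and one more (chr8:141338233-141338511) at 1.15 ± 0.48 in TALE against dCas9. Adjusted p-values of these 5 regions were 0.9997 or above in edgeR.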

How the data were processed

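RNA-seq and MeDIP-seq were analysed from 18 deposited samples, 3 libraries in each of 3 groups per assay. The deposited gene and region tables hold raw counts, whole numbers made by the authors. Per the submitters' processing notes, RNA reads were aligned with STAR 2.3.0 and MeDIP reads with BWA 0.7.5 to hg19, with Picard, MACS2 and bedtools also named. The counter, its annotation and its use of strand are not given in the sources used here. Per the labels' protocols, RNA was amplified with a kit meant for degraded samples and MeDIP libraries were pooled before capture. Each deposited peak list gives a score, a fold enrichment (a ratio over background) with −log10 p and −log10 q per peak, as the authors' caller wrote them for each sample. Every deposited region overlaps a peak of at least 1 sample, so sites with no peak are not in that table.

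The test was edgeR 4.0.16 under R 4.3.3 (glmQLFit and glmQLFTest, TMM factors, filterByExpr with a minimum of 10 counts) on 1 model of 3 group means per assay. A call needed an adjusted p (Benjamini-Hochberg) under 0.05 over all 13786 genes or 105652 regions. CPM values use TMM-scaled totals. Named genes and regions also got an exact permutation test, two-sided, of log2(CPM + 0.5), where 3 against 3 libraries cannot give a p under 0.1 and 6 against 3 none under 0.0119. DESeq2 1.42.0, other filters, RLE factors, a block on replicate numbers and leaving out each library were the alternatives. Positions and sequences came from GENCODE annotation on GRCh37, and overlaps from bedtools 2.31.1. On simulated counts with 200 changed features for TALE against untreated, edgeR recovered 97% of 100 genes changed by 1 log2 unit among 13786, and 30% of 100 such regions among 105652. For changes of 2 log2 units the shares were 100% of genes and 99% of regions. Only features with a mean of at least 30 counts were changed, and every feature of an assay had the same spread. Beyond counting noise, that spread was a coefficient of variation of 0.13 in RNA and 0.19 in MeDIP. These shares do not carry over to features with fewer counts or a wider spread between libraries, as KCNQ1OT1 had.

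The imprinted genes and the other lists were chosen with earlier results of these data known. Values in every library are given for genes that passed the filter. Full statistics are given for the gene with the smallest p in each comparison and the 3 regions with the smallest p, beside sequences of start-site regions. MALAT1, NEAT1 and mitochondrially encoded genes were chosen after their values were seen. Sequence from chromosome 8 is not printed.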

Additional observations from a re-analysis of the deposited data

How the results depend on the processing

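Without the filter on low counts, edgeR called 1 imprinted gene in TALE against untreated and 1 in TALE against dCas9. Both were KCNQ1OT1, at -0.66 and -1.03 on the log2 scale. Over the 41469 genes of that fit it called 74 and 77 in these comparisons, against 3 and 0 of 13786 with the filter. The median log2 fold change over those 41469 genes was -0.23 in TALE and -0.13 in dCas9 against untreated. In TALE against dCas9 it was 0. The number of imprinted genes with a start-site region was 14 when a mean of at least 10 untreated counts was asked for, and with a start-site peak in all 3 untreated libraries it was 0 at a −log10 q of at least 5. With RLE factors, DESeq2 or any library left out, counts of called imprinted genes and regions stayed at 0, while 1 left-out library moved some uncalled fold changes by over 1.5 times, as given beside them, and start-site peak counts ranged from 20 to 21 without one untreated library. Leaving out a library from an arm leaves 2, and the spread is pooled over groups.

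Correlations between the deviations of same-numbered libraries ran from -0.284 to 0.103 in RNA and from -0.00475 to 0.00399 in MeDIP. A library correlated best with its own number in 8 of 18 RNA and 4 of 18 MeDIP cases, each a choice among 3 libraries. The numbers were therefore not used as pairs in the main test. Whether same-numbered libraries shared a batch or a culture was not tested. With a replicate block, edgeR called 0 imprinted genes and 0 regions in each of the 4 comparisons.

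Low counts limit the MeDIP results. Of 433 regions near these genes, 229 passed the filter, a share close to that of all deposited regions (105652 of 198884). The other 204 stayed out of the main test, and the part of depth in this was not tested.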
